A study of Mus musculus with 24 samples.

Results

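In livers of tet-YAP mice, 310 of the 1328 YAP peaks (23.3%, Wilson 95% interval 21.1 to 25.7) lay outside the histone marks of active chromatin as these were mapped in wild-type liver. The 310 unmarked YAP sites were the peaks of the tet-YAP YAP list that shared no base with a wild-type H3K4me3, H3K27ac or H3K4me1 region, leaving out chromosome Y and unplaced contigs. They were thus chosen by their YAP signal in tet-YAP and by the lack of wild-type marks, and those values are given below as a description with no test. The other 1018 peaks served for comparison. They comprised 605 promoter-like sites, which overlapped wild-type H3K4me3, and 413 distal sites, which overlapped wild-type H3K27ac or H3K4me1 but no H3K4me3.

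The data were ChIP-seq peak lists from whole mouse liver, for YAP, TEAD, Myc, RNA polymerase II and histone marks. The 4 genotypes were R26-rtTA;WT (wild-type), R26-rtTA;tet-Myc (tet-Myc), R26-rtTA;tet-YAP (tet-YAP) and R26-rtTA;tet-Myc;tet-YAP (tet-Myc/YAP). All 4, wild-type included, carried the rtTA transactivator at R26, a locus active in most cell types, and the transgenes were induced with doxycycline food for 2 days. The tet-YAP transgene encodes an activated YAP mutant. Each combination of antibody and genotype was 1 library, so no test between genotypes could be made. The sources used here give neither age nor sex, nor whether animals were pooled. YAP lists existed for tet-YAP and tet-Myc/YAP. H3K4me1 was read here in wild-type, and H3K27ac and H3K4me3 in all 4 genotypes. Intervals below are 95% Wilson intervals for shares and 95% Newcombe intervals for differences between shares. Both cover the counting of sites only and leave out variation between animals.

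YAP is the transcriptional coactivator at the end of the Hippo pathway, which restrains liver growth. It does not bind DNA by itself and reaches the genome mainly through the TEAD transcription factors. H3K4me3 marks promoters, H3K4me1 marks enhancers and H3K27ac marks both when active, and in many tissues YAP and TEAD lie mostly at enhancers. Myc, the other factor induced here, is a transcription factor that binds mostly in chromatin that is already active.

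The unmarked YAP sites were spread over all 20 chromosomes of the list, from 2 on chromosome X and 6 on chromosome 19 to 29 on chromosome 1. These chromosomes held 4, 45 and 89 tet-YAP YAP peaks. As a share of the YAP peaks of a chromosome, unmarked sites ranged from 12.5% on chromosome 4 (10 of 80) to 50% on chromosome X. The median gap to the nearest wild-type mark was 20165 bp (quartiles 8250 and 45554), 12 sites lay within 1000 bp of one and 68 were more than 50 kb away. Merging sites within 1000 bp of each other left 290 loci, of which 18 held 2 or more sites and 2 held 3. The 3 sites nearest to a mark lay 94, 260 and 290 bp from it, at chr13:120255328-120255398, chr17:12933273-12933329 and chr7:16548081-16548282 (mm9). Just on the other side of the limit, 6 of the 1018 marked peaks reached only partly into a mark. The one with the least overlap, chr9:58161058-58161187, shared 1 bp with it, and the next 2, chr12:86320917-86320972 and chr17:32523331-32523417, shared 28 and 49 bp.

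In the YAP library itself the unmarked sites had a median fold enrichment over control of 14.58 (quartiles 11.93 and 17.23), which was also the median of the distal and of the promoter-like sites. The highest value was 33.13, against 42.4 at distal and 78.2 at promoter-like sites. The median −log10 q was 5.51 in each of the 3 classes, and the highest 22.29, 32.94 and 126.7. The unmarked sites were narrow, with a median width of 89.5 bp, against 104 bp for distal and 96 bp for promoter-like sites. MACS2, the peak caller, had estimated a fragment size of 56 bp for this library, close to the 51 bp of its reads and below the 287 to 364 bp it estimated for all other lists used at these sites except wild-type Myc, at 51 bp. The peak lists had 16.9 to 50.6 M ChIP reads behind them, and the tet-YAP YAP list 25.2 M ChIP and 25.2 M control reads.

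TEAD occupied most of the unmarked YAP sites, in every genotype, including wild-type livers that carried no YAP transgene. A TEAD peak of wild-type liver overlapped 194 of the 310 (62.6%, 57.1 to 67.8), against 85.3% of all 1328 tet-YAP YAP peaks. In tet-YAP livers TEAD overlapped 206 (66.5%, 61.0 to 71.5, against 85.7% of all). In tet-Myc it overlapped 225 (72.6%, 67.4 to 77.2, against 87.7%), and in the double transgenic livers 226 (72.9%, 67.7 to 77.5, against 88.4%). In each liver the share was lower than at marked sites. The difference from distal sites was −22.9 percentage points for TEAD of tet-YAP livers (−28.9 to −16.9) and −26.8 for TEAD of wild-type livers (−32.9 to −20.6). It was −19.2 in tet-Myc (−24.9 to −13.6) and −18.4 in the double transgenics (−24.1 to −12.8). The tet-Myc and tet-Myc/YAP TEAD lists were longer, with 44217 and 52389 peaks against 33415 in wild-type and 32485 in tet-YAP. With every TEAD list cut to its 32485 strongest peaks, the share was 63.9% in tet-Myc/YAP and 71.0% in tet-Myc. It was then 62.6% in wild-type and 66.5% in tet-YAP. No shares over all tet-YAP YAP peaks are given for the cut TEAD lists, so these values are not read as a trait of the unmarked sites.

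**Figure D1:**
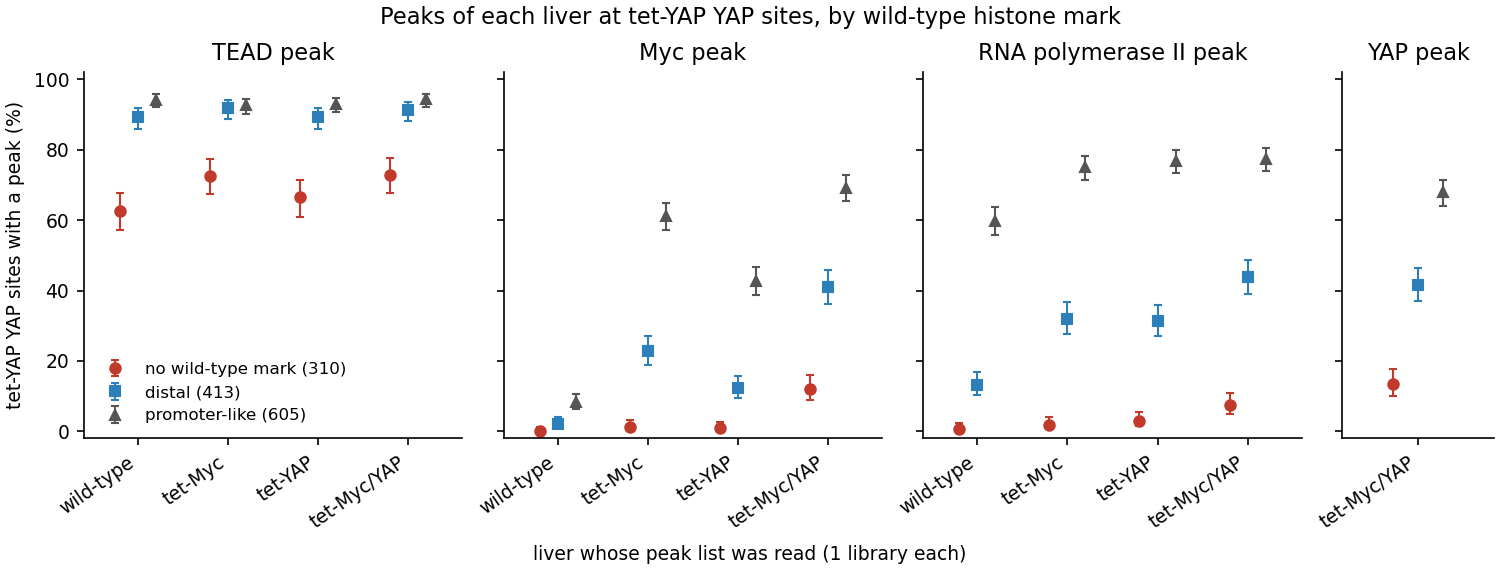
Share of tet-YAP YAP sites (%, vertical axis) that overlapped a TEAD, Myc, RNA polymerase II or tet-Myc/YAP YAP peak in each liver (horizontal axis), for the 310 sites without a wild-type mark, the 413 distal and the 605 promoter-like sites. Bars are 95% Wilson intervals. Unmarked sites were lowest in every panel, but 62.6% to 72.9% of them had TEAD, against at most 11.9% with Myc and 7.42% with RNA polymerase II.

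By genotype, 237 of the 310 unmarked sites had a TEAD peak in at least 1 liver (76.5%, against 91.5% of all), of which 176 had one in all 4 livers (56.8%, against 80.1% of all) and 61 in 1 to 3. The other 73 had none (23.5%, 19.2 to 28.6, against 8.51% of all). The share without any TEAD peak was 6.05% at distal and 2.48% at promoter-like sites. TEAD in tet-YAP but not in wild-type was found at 25 unmarked sites (8.06%, against 3.77% of all tet-YAP YAP peaks and 2.91% of distal ones), 5.16 percentage points above distal sites (1.86 to 8.94). Only sites without wild-type TEAD can be counted here, and wild-type TEAD was at 62.6% of unmarked and 89.3% of distal sites. The 5.16 points are thus not read as a more frequent gain of TEAD at unmarked sites. Of the 25 sites, 20 had TEAD in tet-Myc as well. TEAD in both livers with the YAP transgene and in neither of the others was found at 4 unmarked sites (1.29%, against 0.602% of all), and TEAD in tet-YAP alone at 1 (0.323%, against 0.452%). At the 25 sites the TEAD peaks of tet-YAP were weak, with a median fold enrichment of 7.26 against 12.3 at the 176 sites with TEAD in all 4 livers.

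YAP and TEAD summits lay close together. Where an unmarked site overlapped a tet-YAP TEAD peak, the median distance between summits was 50.5 bp (quartiles 22.3 and 95.5, n = 206). Of all 310 unmarked sites, 163 (52.6%, 47.0 to 58.1) had a tet-YAP TEAD summit within 100 bp, against 62.5% of all tet-YAP YAP peaks and 68.8% of distal ones. Among the 176 sites with TEAD in all 4 livers it was 140 (79.5%). The wild-type TEAD list gave 137 sites (44.2%, against 51.8% of all), that of tet-Myc 184 (59.4%, against 67.2%) and that of the double transgenics 181 (58.4%, against 65.8%).

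Among TEAD peaks outside marks, as among those in marks, those that carried YAP had the higher median TEAD fold enrichment in each list. Wild-type liver had 3207 TEAD peaks outside the 3 wild-type marks, and 176 of them (5.49%) held an unmarked YAP site of tet-YAP. Their median TEAD fold enrichment, measured in livers without the YAP transgene, was 8.42 (quartiles 6.14 and 11.92), against 5.43 (4.67 and 6.49) at the 3031 without YAP. In the TEAD list of tet-YAP the medians were 11.19 at the 187 peaks with YAP and 6.09 at the 3236 without, in tet-Myc 14.59 and 6.71, and in tet-Myc/YAP 18.57 and 6.83. At TEAD peaks in marks, the medians with and without a tet-YAP YAP peak were 11.92 and 5.79 in wild-type and 14.85 and 6.25 in tet-YAP. They were 19.87 and 7.02 in tet-Myc and 27.06 and 7.86 in tet-Myc/YAP. The relation was thus not particular to unmarked sites. Fold enrichment was compared within a list only, since each list has its own depth and control. The TEAD peaks with YAP were also wider, with a median of 624 bp against 450 bp in wild-type and 579 bp against 415.5 bp in tet-YAP. In marks it was 950 bp against 595 bp in wild-type and 846 bp against 532 bp in tet-YAP. The part of width in the overlap was not tested. Ranked by fold enrichment and split into 10 equal groups, the 321 strongest unmarked TEAD peaks of wild-type held YAP at 83 (25.9%), while the weakest 321 held it at 5 (1.56%). Most of the 176 thus lay outside the strongest group. For the tet-YAP TEAD list it was 90 of 343 in the strongest group (26.2%, fold enrichment 11.57 to 59.51) and 3 in the weakest. So even in the strongest group most unmarked TEAD peaks had no YAP peak in this list. Up to 3 YAP sites fell in 1 TEAD peak, and 16 of the 188 tet-YAP TEAD peaks that held an unmarked YAP site held 2 or more.

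**Figure D2:**
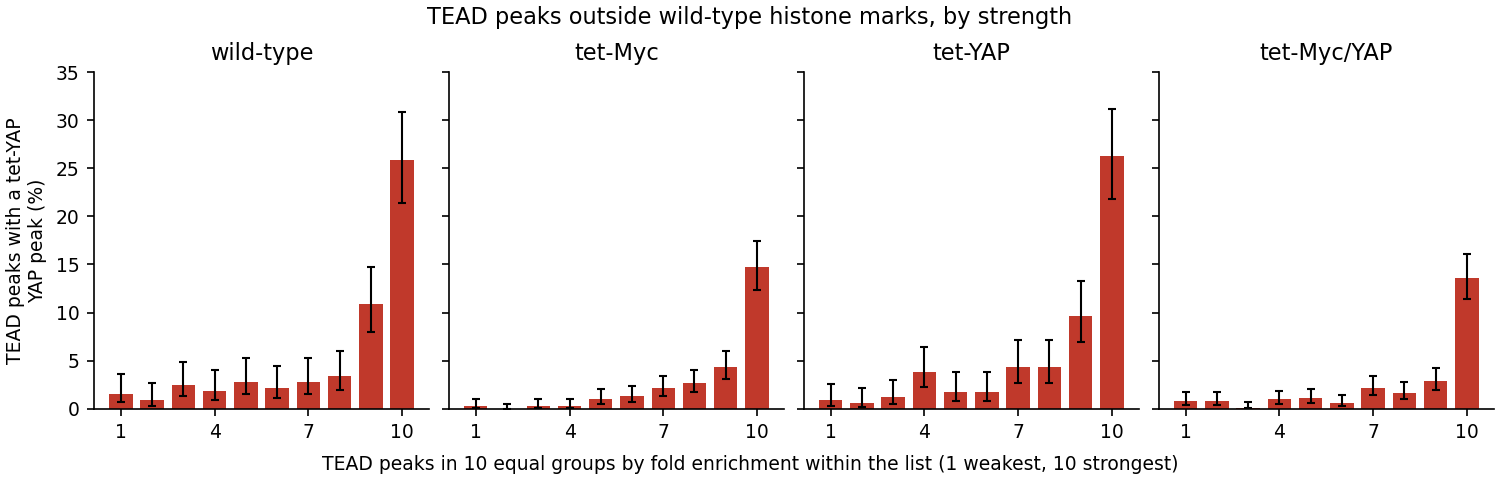
TEAD peaks outside the 3 wild-type marks, split into 10 equal groups by fold enrichment within each liver's list (horizontal axis), and the share of each group that held an unmarked tet-YAP YAP site (%, vertical axis, with 95% Wilson intervals). In each of the 4 lists the strongest group stood above the other 9, at 26.2% for tet-YAP, 25.9% for wild-type, 14.7% for tet-Myc and 13.6% for the double transgenics.

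Single sites showed how much the surroundings of TEAD-bound unmarked YAP varied. The site with the highest −log10 q (22.29), chr1:115867319-115867555 (mm9), had 24 YAP reads at its summit, a YAP fold enrichment of 33.13 and no mark within 2105232 bp. TEAD fold enrichment there was 8.07 in wild-type liver and 20.47 in tet-Myc. It was 6.28 in tet-YAP and 19.56 with both transgenes, and no other list had a peak or region. The next site, chr11:80631606-80632062, lay 6099 bp from a mark and held the strongest tet-YAP TEAD peak outside marks. Its TEAD fold enrichment was 48.12, 101.86, 59.51 and 70.4 in the same order, and it had H3K27ac in all 3 transgenic livers, Myc (6.78) and RNA polymerase II (5.1) in tet-Myc/YAP, and YAP again in tet-Myc/YAP (13.08). At chr3:86954420-86954797, with a YAP fold enrichment of 31.8, TEAD was present at 18.76, 29.5, 15.12 and 18.57, with H3K27ac in the 3 transgenic livers and nothing else. At chr9:63744218-63744548, with a YAP fold enrichment of 27.83, TEAD was the sole other signal, at 14.91, 30.51, 13.16 and 10.88. Of these 4 sites, picked by YAP −log10 q, 3 had no Myc or RNA polymerase II in any liver. Over all unmarked sites Myc was found in any liver at 12.3% and RNA polymerase II at 8.06%. The count is thus not read as a trait of strong sites.

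Where TEAD was found in tet-YAP but not in wild-type, the 3 sites with the highest −log10 q also had TEAD in tet-Myc and tet-Myc/YAP. At chr1:171880266-171880417 the TEAD fold enrichment was 13.6 in tet-Myc livers, 7.44 in tet-YAP livers and 16.57 in tet-Myc/YAP livers. At chr14:26692647-26692789 it was 12.36, 5.33 and 17.61. At chr8:124758100-124758328 it was 10.04, 20.22 and 55.3, and this site also had Myc (6.16) and H3K27ac in tet-Myc/YAP.

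Among the 73 unmarked sites without TEAD in any liver, 62 had no other narrow peak and no mark region of any genotype. Over all tet-YAP YAP peaks the share was 4.74%, but it is 0 by definition at any site with TEAD, so the values are not compared. The 73 sites were narrow, with a median width of 60 bp against 117 bp at the 176 sites with TEAD in all 4 livers. A width equal to the estimated fragment size was found at 25 of the 73 (34.2%) and at 8.52% of the 176, a difference of 25.7 percentage points (14.6 to 37.6). The control had no reads above its genome-wide level at 68.5% of the sites without TEAD and at 47.7% of those with TEAD in all 4. Their median −log10 q was no lower, at 6.61 against 5.51. The 40 marked YAP peaks without TEAD had much the same shape, with a width equal to the fragment size at 12 and a median width of 62.5 bp. Whether peak shape has a part in the missing TEAD overlap was not tested. The 2 TEAD-free sites with the highest −log10 q outside the high-control sites described next, chr8:74377807-74377870 and chr16:30874864-30874927, were each 64 bp wide with 16 YAP reads at the summit and a fold enrichment of 22.53, and the latter lay in a tet-YAP H3K27ac region.

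Among the 73, 6 sites had a high control. Their implied control level at the summit was 16.4 to 43.0 reads, against at most 3 at the other 304 unmarked sites, their YAP pileup was 51 to 88 reads and their fold enrichment 2.07 to 4.09. They lay together at chr11:3049508-3049605, chr11:3054555-3054825, chr11:3069006-3069248, chr11:3069367-3069906 and chr11:3074011-3074190, and at chr9:3036327-3036429. The second of these was among the 5 unmarked sites with the highest −log10 q (15.48). Leaving the 6 out kept every share and median among the 29 values recomputed for the unmarked sites within the interval it had with them.

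**Figure D3:**
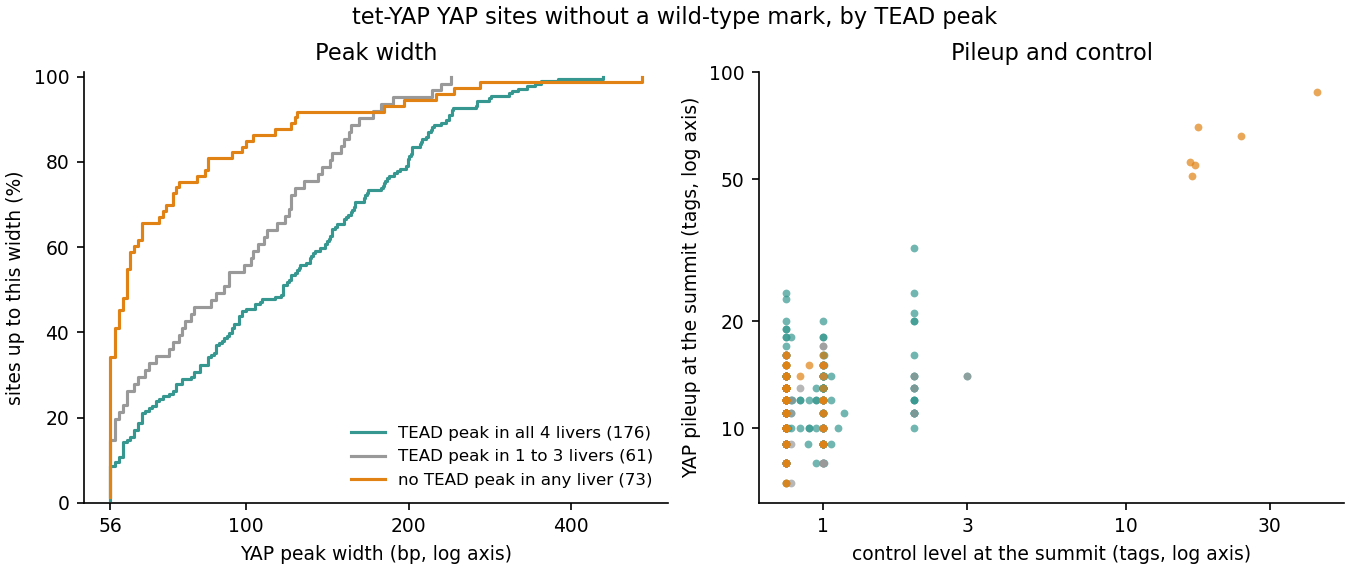
Left, the cumulative share (%) of unmarked tet-YAP YAP sites by peak width (bp, log axis) for 176 sites with TEAD in all 4 livers, 61 with TEAD in 1 to 3 livers and 73 without TEAD. Right, the YAP pileup at the summit against the control level implied by the fold enrichment (reads, log axes), 1 point per site. The median width was 117 bp with TEAD in all 4 livers and 60 bp without TEAD, and 6 sites without TEAD stand apart at control levels from 16.4 to 43.0.

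Myc and RNA polymerase II were rare at the unmarked sites. No unmarked site had a Myc peak in wild-type (0 of 310, which allows a share of up to 0.968% by the limit of 3 counts for a count of 0, against 4.44% of all tet-YAP YAP peaks). There were 3 in tet-YAP livers (0.968%, against 23.5% of all) and 4 in tet-Myc (1.29%, against 35.2%). The double transgenic livers had 37 (11.9%, 8.78 to 16.0, against 47.1%). The wild-type Myc list was unlike the others, with 4602 peaks of median width 80 bp and an estimated fragment size of 51 bp. The transgenic Myc lists had 13226 to 32585 peaks of median width 530 to 749 bp. The count of 0 in wild-type is thus not read as absence of Myc. At distal sites the share in tet-Myc/YAP was 40.9%, a difference of −29.0 percentage points (−34.7 to −22.8). Of the 38 unmarked sites with Myc in any liver (12.3%, against 50.1% of all), 31 had it in tet-Myc/YAP alone. All 38 had a TEAD peak in at least 1 liver, and none was among the 73 without TEAD. With each Myc list cut to its 4602 strongest peaks, the length of the wild-type list, the tet-Myc/YAP share was 0.323%. This value is given without the share over all tet-YAP YAP peaks and is not read as a trait of the unmarked sites.

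RNA polymerase II was found at 2 unmarked sites in wild-type liver (0.645%, against 31.6% of all) and 9 in tet-YAP (2.90%, against 45.4%). It was found at 6 in tet-Myc (1.94%, against 44.6%) and at 23 in the double transgenics (7.42%, 4.99 to 10.9, against 50.6%). In all, 25 of the 310 had it in any liver (8.06%, against 56.6% of all). The wild-type library was the shallowest of the 4, with 20.9 M reads against 37.7 to 50.6 M. The 2 sites with RNA polymerase II in all 4 livers were chr4:40627581-40627738, with TEAD at 12.09, 50.18, 22.1 and 26.13, and chr19:55135653-55135720, whose one TEAD peak was at 4.5 in tet-Myc/YAP.

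RNA polymerase II and H3K27ac were more frequent at the 37 unmarked sites with Myc in tet-Myc/YAP, though most sites with either lay outside the 37. RNA polymerase II was present in tet-Myc/YAP at 11 of the 37 (29.7%) and at 12 of the other 273 (4.40%), a difference of 25.3 percentage points (12.7 to 41.5). An H3K27ac region of tet-Myc/YAP covered 33 of the 37 (89.2%) and 52 of the 273 (19.0%), a difference of 70.1 points (55.3 to 77.9). In tet-YAP, where 2 of the 37 had a Myc peak, H3K27ac covered 21 of the 37 (56.8%) and 47 of the 273 (17.2%), a difference of 39.5 points (23.0 to 54.7). The 273 included the 73 sites without TEAD. Among unmarked sites with TEAD in all 4 livers, H3K27ac of tet-Myc/YAP covered 88.2% of those with Myc there and 28.9% of the others. The difference was 59.4 points (42.5 to 69.2), and for RNA polymerase II 20.8 points (7.92 to 37.7), from 26.5% and 5.63%. With Myc, unmarked minus distal sites of this kind was −9.34 points for H3K27ac (−24.3 to −1.37) and −53.5 for RNA polymerase II (−66.6 to −35.6). Wild-type H3K27ac was at 90.9% of these distal sites and, by the rule, at no unmarked site. The H3K27ac difference is thus partly set by how the classes were chosen. What part Myc or TEAD strength had in these differences was not tested. All 37 had TEAD in tet-YAP, with a median fold enrichment of 16.7, against 11.4 over all 206 unmarked sites with TEAD there.

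The 3 unmarked sites with Myc in tet-YAP each had TEAD in all 4 livers. At chr19:12793879-12793941 Myc was at 5.25 in tet-YAP and 10.79 in the double transgenics, and RNA polymerase II at 21.79 with the Myc transgene, 8.17 with the YAP transgene and 5.81 with both. H3K27ac covered it in tet-YAP livers and in the double transgenics. At chr14:77042134-77042194 Myc was at 5.86 and 14.25 in the same livers, H3K27ac was again present in both and YAP was found in tet-Myc/YAP (10.64). At chr10:5748128-5748192 Myc was present in tet-YAP (5.47) and absent from the tet-Myc/YAP list.

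Most unmarked YAP sites were not found again when Myc was induced together with YAP. A tet-Myc/YAP YAP peak overlapped 42 of the 310 (13.5%, 10.2 to 17.8), against 47.1% of all tet-YAP YAP peaks, 41.6% of distal and 67.9% of promoter-like ones. The difference from distal sites was −28.1 percentage points (−34.0 to −21.8). The tet-Myc/YAP list was the longer one, with 11708 peaks, and cut to its 1328 strongest it overlapped 1.29% of unmarked sites. No share over all tet-YAP YAP peaks is given for the cut list, so the 1.29% is not read as a trait of the unmarked sites. Seen from the tet-Myc/YAP list, 190 of 11708 peaks (1.62%) lay outside the wild-type marks and 34 of these held an unmarked tet-YAP site. Both YAP libraries differed in more than genotype. The tet-Myc/YAP library had 17.4 M ChIP reads against a control of 167 M, an estimated fragment size of 364 bp and a median peak width of 548 bp, and the part of this in the overlap was not tested.

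Of the 42 sites found again, 40 had TEAD in at least 1 liver. They numbered 37 of the 176 with TEAD in all 4 livers (21.0%, 15.7 to 27.6) and 2 of the 73 without TEAD (2.74%, 0.755 to 9.45), a difference of 18.3 percentage points (9.69 to 25.2). Those 2 were both high-control sites, and none of the other 67 was found again, which allows a share of up to 4.48% by the same limit of 3 counts. Wild-type TEAD fold enrichment had a median of 13.5 at the sites found again (n = 37) and 8.24 at the others (n = 157). Another tet-YAP YAP summit lay within 1000 bp at 40.5% of the sites found again and at 8.21% of the others (12.6% of all 310 and 17.1% of all tet-YAP YAP peaks). The 42 sites lay in 34 tet-Myc/YAP YAP peaks, so neighbouring sites could share 1 wide peak and still count separately. With sites within 1000 bp merged, the share found again was 11.7% (34 of 290). The part of shared peaks in the 40.5% was not tested. By YAP −log10 q the share found again was 10.7%, 11.7% and 18.3% in the weakest, middle and strongest of 3 equal groups of unmarked sites, with overlapping intervals.

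Among unmarked sites with TEAD in all 4 livers, YAP was found again at 15 of 34 with a Myc peak in tet-Myc/YAP (44.1%, 28.9 to 60.5) and at 22 of 142 without (15.5%, 10.5 to 22.3), a difference of 28.6 percentage points (11.9 to 45.8). TEAD strength moved with Myc. The median TEAD fold enrichment was 16.9 at the 34 and 11.4 at the 142 in the tet-YAP list, 38.1 and 18.6 in that of tet-Myc/YAP, and its part in the difference was not tested. Distal sites with TEAD in all 4 livers had 75.8% and 23.7%. Unmarked minus distal was −31.6 points with Myc (−48.0 to −13.8) and −8.16 points without (−16.5 to 0.645), and whether these 2 differences differ was not tested. Promoter-like sites with TEAD in all 4 and no Myc stood at 38.4%, and the unmarked sites were 22.9 points lower (12.6 to 32.6 points lower). The strongest sites found again without Myc were chr1:36074061-36074259, with TEAD at 9.5, 20.79, 44.37 and 94.63 and tet-Myc/YAP YAP at 7.98, and chr4:47063180-47063378, with TEAD at 35.6, 89.7, 52.03 and 84.85 and tet-Myc/YAP YAP at 8.28. The former had H3K27ac in both livers with the YAP transgene, and the latter had no mark in any liver.

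By the rule that chose them the unmarked sites had no H3K27ac in wild-type, so values of the other livers are not set against wild-type. The shares over all tet-YAP YAP peaks include the marked sites, so the gap to them is partly set by the same rule. In tet-YAP livers an H3K27ac region covered 68 of the 310 (21.9%, 17.7 to 26.9, against 76.8% of all tet-YAP YAP peaks). In tet-Myc it covered 41 (13.2%, 9.90 to 17.5, against 73.5%), and with both transgenes 85 (27.4%, 22.8 to 32.6, against 77.2%). At least 1 of the 3 livers had H3K27ac at 106 sites (34.2%, against 81.6% of all), and all 3 had it at 22 (7.10%, against 69.8%). Sites covered in tet-YAP and tet-Myc/YAP but not in tet-Myc numbered 32. Another 22 were covered in the double transgenics alone, 11 in tet-YAP alone and 7 in tet-Myc alone. In tet-YAP 60 H3K27ac regions held the 68 sites, and 51 of the 60 overlapped no wild-type H3K27ac region. The rule favours such regions, because sites with wild-type H3K27ac were left out. No share over all tet-YAP H3K27ac regions is given, so the 51 are not read as a trait of the unmarked sites. The depth of the histone mark libraries is unknown, so depth and genotype cannot be told apart in the order of the 3 livers. H3K4me3 was found at 2 unmarked sites in tet-YAP livers (0.645%, against 40.7% of all) and at 2 in tet-Myc (0.645%, against 41.3%). With both transgenes it was found at 11 (3.55%, against 46.4%).

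H3K27ac went with TEAD in the livers with the YAP transgene. In tet-YAP it covered 29.5% of the 176 sites with TEAD in all 4 livers and 8.22% of the 73 without TEAD, a difference of 21.3 percentage points (10.7 to 29.7). In tet-Myc/YAP it was 40.3% and 6.85%, a difference of 33.5 points (22.7 to 41.8). In tet-Myc it was 17.6% and 8.22%, and that difference of 9.39 points had an interval that included 0 (−0.491 to 17.1). Whether the difference between site classes itself differed between livers was not tested. H3K27ac was least frequent at the sites farthest from wild-type marks. In tet-YAP it covered 31.1% of the 45 sites up to 5 kb from a mark, 32.1% of the 109 at 5 to 20 kb, 17.0% of the 88 at 20 to 50 kb and 5.88% of the 68 farther away. In the same order it was 28.9%, 11.9%, 13.6% and 4.41% in tet-Myc and 31.1%, 36.7%, 26.1% and 11.8% in tet-Myc/YAP. The order of the nearer groups thus differed between livers. Wild-type marks were part of the rule, so these shares are a description. TEAD in tet-YAP was not lowest at the farthest sites, with 57.8%, 75.2%, 65.9% and 58.8%.

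**Figure D4:**
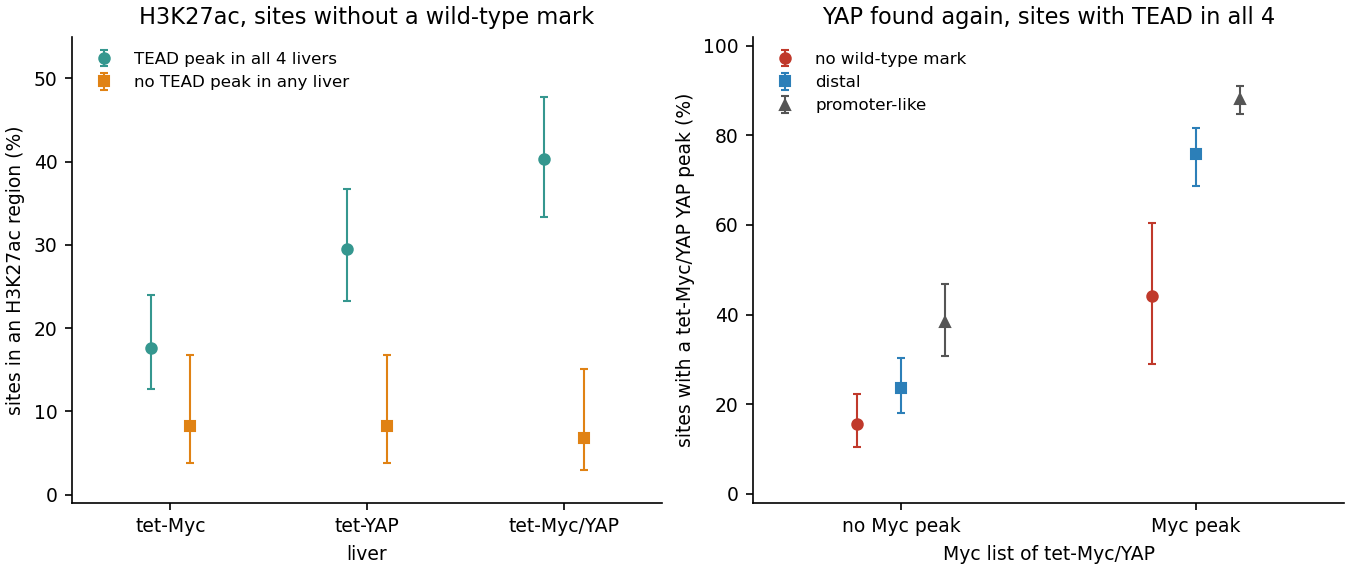
Left, the share of unmarked tet-YAP YAP sites (%) in an H3K27ac region of each transgenic liver, for 176 sites with TEAD in all 4 livers and 73 without TEAD. Right, the share of sites (%) with a YAP peak in tet-Myc/YAP, for unmarked, distal and promoter-like sites with TEAD in all 4 livers, without and with a Myc peak in tet-Myc/YAP. Bars are 95% Wilson intervals. H3K27ac at TEAD-bound sites was at 29.5% in tet-YAP livers, 17.6% in tet-Myc and 40.3% with both transgenes, and YAP was found again at 15.5% of unmarked sites without Myc and 44.1% with Myc.

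Unmarked TEAD peaks without YAP give a background for these shares. Of the wild-type TEAD peaks outside marks, H3K27ac in tet-YAP covered 26.7% of the 176 with an unmarked YAP site and 10.9% of the 3031 without YAP (11.8% of all 3207), a difference of 15.8 percentage points (9.72 to 22.9). In tet-Myc/YAP it was 35.8% and 12.3% (13.6% of all), a difference of 23.5 points (16.7 to 30.9), and in tet-Myc, without the YAP transgene, 15.3% and 9.20% (9.54% of all), a difference of 6.14 points (1.43 to 12.3). TEAD strength moved with YAP, as described above. Within the strongest of the 10 groups of wild-type TEAD peaks the differences were 10.2 points in tet-YAP (0.588 to 21.2), 17.5 in tet-Myc/YAP (6.11 to 29.3) and 9.92 in tet-Myc (1.06 to 20.5). Over all 3423 unmarked TEAD peaks of tet-YAP, H3K27ac covered 15.8% in tet-YAP, 18.6% in tet-Myc/YAP and 9.67% in tet-Myc. Within their strongest group the differences were 8.92 points in tet-YAP (−2.09 to 20.5), 10.7 in tet-Myc/YAP (−1.19 to 22.3) and 9.16 in tet-Myc (1.74 to 18.6). The other TEAD lists gave a wider gap between tet-YAP and tet-Myc. In the strongest group of the tet-Myc TEAD list the differences were 16.1 points for H3K27ac of tet-YAP (8.19 to 25.3), 14.2 for tet-Myc/YAP (5.24 to 23.9) and 2.99 for tet-Myc (−3.14 to 11.1). In that of the tet-Myc/YAP TEAD list they were 18.6 points (9.91 to 28.1), 7.62 (−2.10 to 17.4) and 5.49 (−0.986 to 13.8). At strong TEAD peaks the size of each difference thus varied with the TEAD list used for ranking, and whether it differed between livers was not tested.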

How the data were processed

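Of the 24 samples of the series, 23 had a peak list used here, and 1 input sample was not used. Reads were aligned by the authors to mm9 with BWA 0.6.2 and peaks called with MACS2 2.0.9 for each library on its own, per the submitters' processing notes. Per the file headers, the 14 narrow lists used a p cutoff of 1e-05 and kept at most 2 duplicate reads. For each peak the deposited narrow lists give the pileup signal, its ratio to control (fold enrichment), and −log10 p and −log10 q values. The 9 deposited broad lists of histone marks give a score of unstated scale, which was not used.

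Sites overlapped where they shared 1 bp. The implied control level was the pileup plus 1 divided by the fold enrichment. Overlaps and intervals were computed with pandas 2.3.3 and scipy 1.17.1, tested on simulated data (7 of 7 checks) and gave the same overlaps as bedtools 2.31.1 for 4 lists. Figures were drawn with matplotlib 3.10.9. The sites named were the 5 unmarked sites with the highest −log10 q, the top 3 of each class (TEAD in all 4 livers, TEAD in tet-YAP but not wild-type, no TEAD, found again, Myc in tet-YAP, RNA polymerase II in all 4, H3K27ac in tet-YAP) and the 3 on either side of the limit. The unmarked sites and these classes were chosen with earlier results of these data known. Narrow lists had 16.9 to 50.6 M ChIP reads, and the depth of the broad lists is unknown. Genes, motifs, sequences and liver marker genes were not analysed here, since no mm9 genome or annotation was at hand.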

Additional observations from a re-analysis of the deposited data

How the results depend on the processing

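No paired analysis was possible because each group was 1 library. Of 237 recomputed values, 191 were counted as the same and 46 as moved. A share or median counted as moved where it left the interval of the value given above. For a median this was the interval of the median itself, which is narrower than its quartiles. The number of sites, also among the 237, has no such interval. Values stayed within that limit where the YAP summit alone had to lie outside marks, where sites had to lie 1000 bp from any mark, where YAP sites were widened to 250 bp on either side of the summit and, as alternatives chosen after seeing the data, without the 6 high-control sites and with sites within 1000 bp merged.

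When H3K4me3 and H3K27ac of all 4 genotypes defined the marks, 201 sites remained (15.1% of the list). In tet-YAP, wild-type, tet-Myc/YAP and tet-Myc livers their TEAD shares were then 55.2%, 53.7%, 64.2% and 64.2%, and the shares with a TEAD summit within 100 bp 44.3%, 35.3%, 51.2% and 53.7%. Myc was at 0% in both single transgenics and 1.49% in tet-Myc/YAP, RNA polymerase II at 1.49% in tet-YAP and 1.99% in the double transgenics, tet-Myc/YAP YAP at 8.46%, and the median TEAD fold enrichment 9.62 in tet-YAP and 12.6 in the double transgenics. Without H3K4me1 in the rule, unmarked sites made up 26.8% of the list, with RNA polymerase II at 5.90% in tet-YAP and 11.2% in the double transgenics and H3K27ac at 17.7% in tet-Myc. With a −log10 q of at least 10 in every narrow list, 30 sites remained (15.5%). Myc was then at 0%, 3.33% and 6.67% in tet-YAP, tet-Myc and double transgenic livers, wild-type RNA polymerase II at 0%, H3K4me3 at 0% in each of the 3 transgenic livers and tet-Myc/YAP H3K27ac at 33.3%. The median TEAD fold enrichment was 20.2, 14.6, 37.3 and 26.4 in the 4 livers, in the order used above, and a TEAD summit lay within 100 bp at 53.3% in wild-type and 70.0% in each of the others. With lists cut to equal length, TEAD was at 63.9% in tet-Myc/YAP (summit within 100 bp 50.6%), Myc at 0% in both single transgenics and 0.323% in tet-Myc/YAP, and tet-Myc/YAP YAP at 1.29%. The fewer sites or shorter lists are part of how these alternatives were built, and the cause was otherwise not tested. One library per group leaves variation between animals unmeasured.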
